A study of Homo sapiens with 12 samples.

Results

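The 10 genes described here report and restrain signalling through the kinase ERK: the phosphatases DUSP4, DUSP5 and DUSP6, the inhibitors SPRY2, SPRY4, SPRED1 and SPRED2, the transcription factors ETV4 and ETV5, and PHLDA1. They were chosen by name, at a time when earlier results of these data were known. All 10 were found by symbol among the 61044 rows of the gene table, and all 10 passed the filter on low counts that left 17532 genes. RNA came from SCC-15, an established human line of oral squamous cell carcinoma, and was sequenced from 12 libraries in 4 groups of 3. The NC cells carried a negative-control short hairpin RNA, and the shRNA1, shRNA2 and shRNA3 cells each carried a different hairpin against FMOD, the gene of the matrix proteoglycan fibromodulin. All were harvested at 48 h. The labels describe negative-control and FMOD-depleted cell lines, name no delivery method or clone for any hairpin, and do not say whether the libraries of a group came from separate cultures, so p-values measure only the spread between libraries, which may be technical. The series' title places FMOD upstream of the epidermal growth factor receptor, EGFR, and the question here was how genes downstream of ERK stood where EGFR RNA was low.

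A ligand-bound receptor such as EGFR activates RAS, which passes the signal through RAF and MEK kinases to ERK. Active ERK induces a set of genes that then limit it. DUSP proteins remove the activating phosphates from ERK, and Sprouty and SPRED proteins act between the receptor and RAF. In squamous epithelium this cascade drives proliferation, and the RNA of its feedback genes is widely read as a measure of its output.

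Promoter sequence was taken from RefSeq (GRCh38.p14) as 300-base windows, from 250 bases before to 50 bases after a transcript start. Windows were used here for 6 of the 10 genes (DUSP6, SPRY2, SPRY4, SPRED1, SPRED2 and PHLDA1), 9 windows in all. DUSP4, DUSP5, ETV4 and ETV5 had no window in the set searched, which does not show that none exists. Whether their promoters hold these motifs was not tested. The windows printed here are of the genes with windows that rose with each hairpin (SPRY2, SPRY4 and PHLDA1) and of SPRED2, the other gene with the half-site. Each reads 5′ to 3′ along the gene, and capitals mark every match on either strand to the cyclic AMP response half-site TGACG, bound by CREB and ATF factors.

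SPRY2 (chr13:80341077-80341376, minus strand): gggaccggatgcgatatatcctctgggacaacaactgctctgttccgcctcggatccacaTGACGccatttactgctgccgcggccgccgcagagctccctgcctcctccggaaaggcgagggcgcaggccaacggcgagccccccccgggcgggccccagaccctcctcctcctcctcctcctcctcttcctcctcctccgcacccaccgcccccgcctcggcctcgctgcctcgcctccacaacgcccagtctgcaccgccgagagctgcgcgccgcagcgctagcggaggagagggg

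SPRY4 (chr5:142324198-142324497, minus strand): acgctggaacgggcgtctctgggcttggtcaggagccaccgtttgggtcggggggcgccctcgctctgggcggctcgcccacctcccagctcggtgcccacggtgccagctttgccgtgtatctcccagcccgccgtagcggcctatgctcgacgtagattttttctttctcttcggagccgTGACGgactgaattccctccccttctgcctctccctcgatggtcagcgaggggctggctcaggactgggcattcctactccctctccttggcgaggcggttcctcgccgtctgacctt

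SPRED2 (chr2:65432550-65432849, minus strand): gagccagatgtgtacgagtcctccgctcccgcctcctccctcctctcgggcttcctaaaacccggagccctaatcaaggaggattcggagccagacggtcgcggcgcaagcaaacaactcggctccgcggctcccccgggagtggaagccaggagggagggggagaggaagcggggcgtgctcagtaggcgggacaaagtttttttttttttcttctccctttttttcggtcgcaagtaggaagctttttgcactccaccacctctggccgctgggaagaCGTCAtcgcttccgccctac

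PHLDA1 (chr12:76031727-76032026, minus strand): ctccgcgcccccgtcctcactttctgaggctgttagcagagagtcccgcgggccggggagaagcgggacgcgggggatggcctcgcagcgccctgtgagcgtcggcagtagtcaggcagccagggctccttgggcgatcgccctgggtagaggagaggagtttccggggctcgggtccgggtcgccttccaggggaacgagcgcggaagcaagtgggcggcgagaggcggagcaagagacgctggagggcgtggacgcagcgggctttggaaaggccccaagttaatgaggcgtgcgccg

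The half-site was found in the windows of 3 of the 6 genes, against 28.4% of the 27305 genes with windows. In SPRY2 and SPRED2 it lay in the first window only, and not in windows 2 and 3 of SPRY2 or window 2 of SPRED2. Its first base lay 190 bases before the start of that window's transcript in SPRY2 and at base 31 after it in SPRED2. In SPRY4 it lay 68 bases before the start. The AP-1 site TGANTCA, bound by FOS and JUN proteins, was found in 1 of the 6 genes, in the second window of SPRED2 only, against 9.37% of all genes with windows. The ETS site CCGGAAG, of the factor family that holds ETV4 and ETV5, and the serum response element known as the CArG box were found in 0 of the 6, against 12.2% and 1.6% of all genes. No motif searched overlapped another in these windows. GC content ran from 39.3% to 76.3% over the 9 windows, with a median of 63.0%, against 58.7% over all windows.

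The libraries held between 17286934 and 19567192 estimated counts. FMOD itself held 2, 2 and 3 counts in the NC libraries and 0 in all 9 shRNA libraries, with a difference of -0.16 in log2(CPM + 1) (p = 0.00455 by a two-sided exact permutation test, the lowest that the 220 splits can give). It was thus near 0 in NC as well, at a mean of 0.117 CPM, so the depth of its depletion cannot be judged from these counts. The NC libraries stood far from the rest: their log2 CPM correlated across genes at 0.773 to 0.795 with the shRNA libraries, and at 0.897 to 0.981 between hairpins. There were 489 genes read at 1 CPM or more across NC that held no more than 3 counts in any shRNA library, and 235 with the opposite pattern. None of the 10 genes was among these. An effect of FMOD and any other difference between the NC and the shRNA cultures cannot be told apart in this design. Within shRNA3, libraries 1 and 2 correlated at 0.987 with each other and at 0.911 and 0.908 with library 3. Most counts of genes that passed with shRNA3, and values that those libraries change, are therefore also given without them. All 12 squamous epithelial markers checked were read at a mean of at least 1 CPM in each group, and they moved in both directions. The basal keratin KRT5 stood at 965 to 1049 CPM in NC and at 16.5 to 90.3 CPM in the shRNA libraries, whereas its partner KRT14 stood at 6.51 to 9.59 CPM and at 24.2 to 230 CPM. Of the 5 leukocyte markers only CD68 reached that mean in any group. Of the 6 fibroblast markers 4 reached it in NC, 1 with shRNA1 and with shRNA3 and 2 with shRNA2, and their summed level was 56.7 to 59.6 CPM in NC and 15.5 to 86.6 CPM in the shRNA libraries. Of the 4 endothelial markers 2 reached it in each group, CDH5 and VWF in NC and CDH5 and PECAM1 with each hairpin. CDH5 stood at 15.4 to 20.5 CPM in NC and at 0.519 to 2.76 CPM in the shRNA libraries, while PECAM1 stood at 0.101 to 0.197 CPM and at 2.09 to 9.68 CPM. The part of these marker levels in the results was not tested.

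Most of the 10 genes were higher with each FMOD hairpin than with the control hairpin, while EGFR RNA was lower. With shRNA1, 8 of the 10 passed at an adjusted p under 0.05, all upward, against 26.8% upward and 30.6% downward over all genes tested (edgeR quasi-likelihood test with Benjamini-Hochberg adjustment over all genes). With shRNA2, 5 passed, all upward, against 24.6% upward and 28.4% downward. With shRNA3, 9 passed upward and SPRED1 downward, against 26.4% upward and 27.6% downward. For the mean of the 3 hairpins, 8 passed, all upward, against 27.9% upward and 32.2% downward. All libraries of the hairpin lay above all NC libraries for 8 genes with shRNA1, against 35.7% of all genes above and 38.6% below. They did so for 8 genes with shRNA2, with DUSP5 wholly below, against 38.2% above and 41.4% below. They did so for 8 genes with shRNA3, with SPRED1 wholly below, against 25.5% above and 32.0% below. Without libraries 1 and 2 of shRNA3, 7 genes passed with shRNA3, all upward, against 28.1% upward and 28.8% downward over all genes in that fit. The median log2 fold change of the 10 genes was 1.22 with shRNA1, 0.80 with shRNA2 and 1.89 with shRNA3, beside medians of -0.02, -0.05 and -0.03 over all genes. Without those libraries the median with shRNA3 was 1.49, beside -0.09 over all genes, and the log2 changes were 2.11 for DUSP4, 1.50 for DUSP6 and 0.73 for ETV5. The 3 comparisons share their NC libraries and so are not independent. In bulk RNA, a smaller share of cells with the transcript and less RNA per cell cannot be told apart. The values of every library are shown in the plot of levels.

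**Figure D1:**
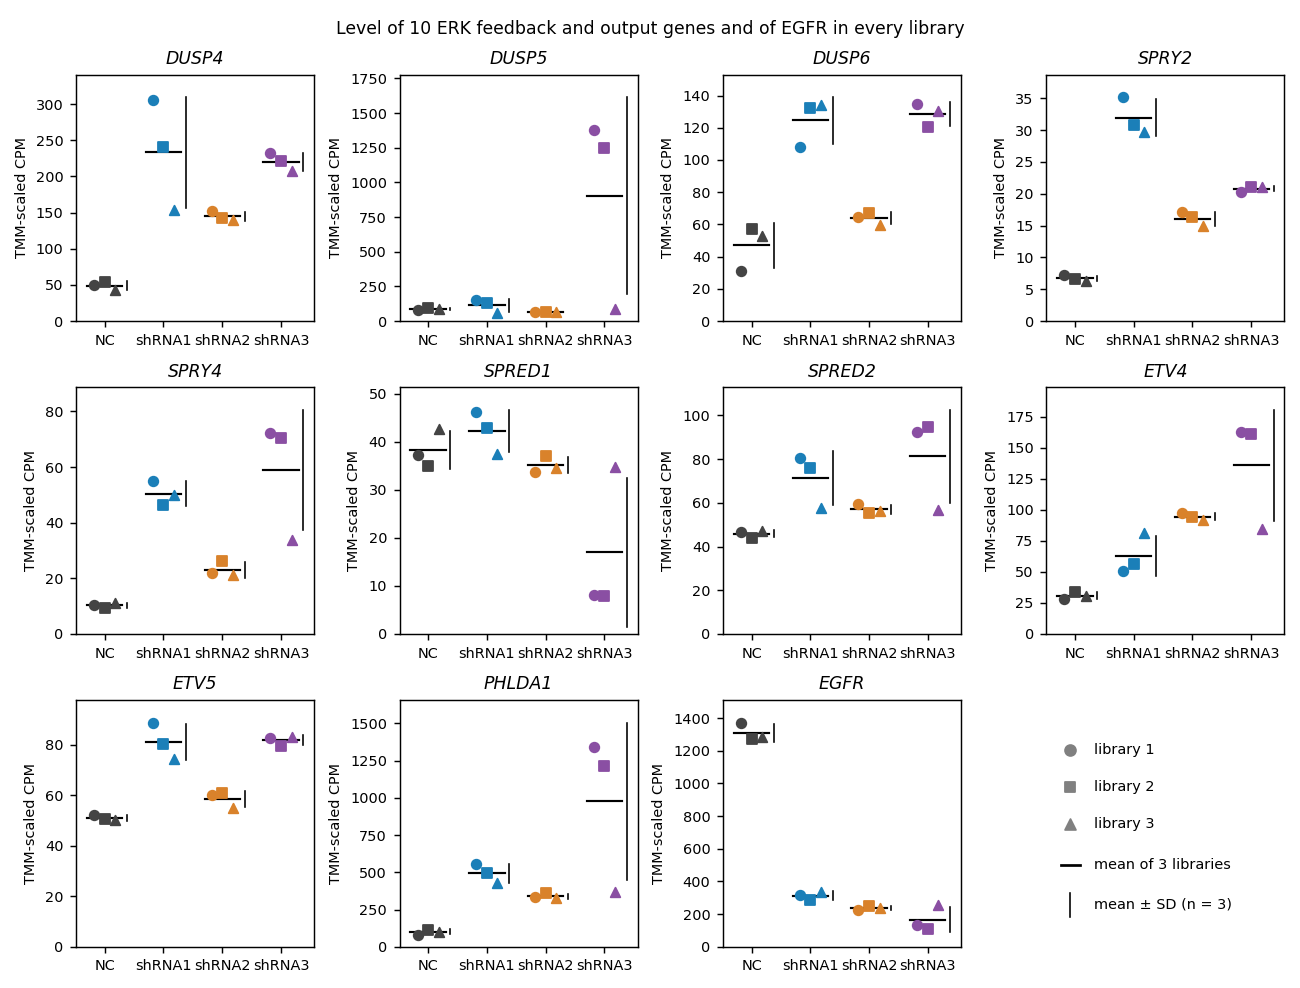
TMM-scaled CPM of the 10 ERK feedback and output genes and of EGFR, on linear axes from 0. Points are the 12 libraries by group, shaped by library number, horizontal lines are means and vertical lines are mean ± SD (n = 3). All but DUSP5 and SPRED1 of the 10 genes lie above NC in every shRNA library, whereas EGFR lies below it. Libraries 1 and 2 of shRNA3 stand apart from library 3 for DUSP5, SPRY4, SPRED1, SPRED2, ETV4, PHLDA1 and EGFR.

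The nuclear phosphatase DUSP4 (chromosome 8, 29333064 to 29350668, minus strand) was read at 49.9, 54.5 and 42.9 CPM in NC. It was read at 306, 241 and 153 CPM with shRNA1, at 152, 143 and 140 CPM with shRNA2 and at 232, 221 and 207 CPM with shRNA3. All 9 shRNA libraries lay above all NC libraries, and within shRNA1 library 1 held the highest value and library 3 the lowest. The log2 fold changes were 2.25 (SE 0.22), 1.56 (SE 0.21) and 2.16 (SE 0.22), with edgeR adjusted p-values of 7.85e-06, 9.52e-05 and 1.08e-05.

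DUSP6 (chromosome 12, 89347232 to 89353271, minus strand) is the cytoplasmic phosphatase most specific to ERK. It was read at 31.3, 56.9 and 52.6 CPM in NC, at 108, 132 and 134 CPM with shRNA1, at 64.9, 67.3 and 59.6 CPM with shRNA2 and at 135, 121 and 130 CPM with shRNA3. The shRNA2 libraries lay just above the highest NC library, while those of the other hairpins lay well above it. The gene rose 2.66-fold with shRNA1 (log2 1.41, SE 0.20, edgeR adjusted p = 0.000117) and 2.74-fold with shRNA3 (log2 1.45, SE 0.20, adjusted p = 0.000103). The log2 change of 0.45 with shRNA2 did not pass (95% interval 0.02 to 0.88, adjusted p = 0.0756). Without NC library 2 it was 0.61 and passed (adjusted p = 0.0364).

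DUSP5, the nuclear phosphatase that binds and anchors ERK (chromosome 10, 110497838 to 110511544, plus strand), did not follow the other phosphatases. It was read at 79.7, 97.0 and 83.2 CPM in NC, at 150, 128 and 61.1 CPM with shRNA1 and at 63.1, 63.0 and 64.6 CPM with shRNA2. With shRNA3 it was read at 1379 and 1249 CPM in libraries 1 and 2 and at 85.6 CPM in library 3. The shRNA1 libraries lay on both sides of NC, all shRNA2 libraries lay below it, and 2 of the 3 shRNA3 libraries lay far above every other library. The rise with shRNA3 was 10.4-fold (log2 3.38, SE 0.74, edgeR adjusted p = 0.00251). It was 15.1-fold without library 3 and 1.01-fold without libraries 1 and 2 (adjusted p = 0.982), so it rests on those 2 libraries. The log2 changes of 0.38 with shRNA1 (95% interval -1.11 to 1.87) and -0.45 with shRNA2 (-1.94 to 1.05) did not pass. Their intervals rest on a spread shared by the 4 groups, to which the disagreeing shRNA3 libraries contribute. With only the 6 libraries of NC and shRNA2 the fall passed, in a fit that called 37.8% of all genes higher and 41.4% lower.

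Sprouty proteins are induced by receptor signalling and block its passage to RAF. SPRY2 (chromosome 13, 80335976 to 80340951, minus strand) was the gene with the fewest reads of the 10 in NC, at 7.17, 6.55 and 6.34 CPM. It was read at 35.2, 30.8 and 29.8 CPM with shRNA1, at 17.1, 16.3 and 14.9 CPM with shRNA2 and at 20.3, 21.0 and 21.0 CPM with shRNA3. No library of a hairpin overlapped NC, and the 4 groups did not overlap one another. The log2 fold changes were 2.25 (SE 0.16), 1.27 (SE 0.15) and 1.63 (SE 0.15), with edgeR adjusted p-values of 7.63e-07, 3.73e-05 and 6.64e-06. Leaving out libraries 1 and 2 of shRNA3 left the last at 1.68.

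SPRY4 (chromosome 5, 142310427 to 142326455, minus strand) was read at 10.4, 9.46 and 11.3 CPM in NC, at 55.0, 46.2 and 50.02 CPM with shRNA1, at 21.7, 26.3 and 21.1 CPM with shRNA2 and at 72.3, 70.5 and 33.9 CPM with shRNA3. Every shRNA library again lay above every NC library. The log2 fold changes were 2.28 (SE 0.26), 1.15 (SE 0.25) and 2.50 (SE 0.26), with edgeR adjusted p-values of 2.51e-05, 0.00255 and 1.49e-05. The rise with shRNA3, 5.67-fold, was 3.33-fold without libraries 1 and 2 (adjusted p = 1.63e-06).

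The SPRED genes encode Sprouty-related membrane proteins that bring the RAS inhibitor neurofibromin to the membrane. SPRED2 (chromosome 2, 65310851 to 65432637, minus strand) was read at 46.5, 44.0 and 47.1 CPM in NC, at 80.5, 75.9 and 57.4 CPM with shRNA1, at 59.4, 55.3 and 56.3 CPM with shRNA2 and at 92.3, 94.9 and 56.9 CPM with shRNA3. All shRNA libraries lay above NC, but by less than for the Sprouty genes. It rose 1.55-fold with shRNA1 (log2 0.64, SE 0.19, edgeR adjusted p = 0.0149) and 1.77-fold with shRNA3 (log2 0.83, SE 0.19, adjusted p = 0.00378). The log2 change of 0.31 with shRNA2 did not pass (adjusted p = 0.194). The call with shRNA1 was lost without shRNA1 library 1 (adjusted p = 0.0531) and with upper-quartile scaling (log2 0.46, adjusted p = 0.0617), and that with shRNA3 without libraries 1 and 2 (log2 0.34, adjusted p = 0.0929).

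SPRED1 (chromosome 15, 38252326 to 38357249, plus strand) was read at 37.2, 35.0 and 42.6 CPM in NC, at 46.3, 42.9 and 37.5 CPM with shRNA1 and at 33.8, 36.9 and 34.6 CPM with shRNA2. With shRNA3 it was read at 8.08 and 7.94 CPM in libraries 1 and 2 and at 34.8 CPM in library 3. The shRNA1 and shRNA2 libraries overlapped NC, with log2 changes of 0.14 (95% interval -0.84 to 1.12) and -0.12 (-1.11 to 0.86). The fall with shRNA3 was 2.24-fold (log2 -1.16, SE 0.46, edgeR adjusted p = 0.0491). It was 4.78-fold without library 3 (adjusted p = 3.73e-09), and its log2 change was -0.11 without libraries 1 and 2 (adjusted p = 0.591). Leaving out any 1 library of NC, or library 1 or 2 of shRNA3, also lost the call, with edgeR adjusted p-values of 0.0815 to 0.154. So did raw library totals (0.0614), no filter on low counts (0.108) and a fit to the 6 libraries compared (0.183).

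ETV4 and ETV5 are ETS transcription factors of the PEA3 group, induced by ERK and activated by it. ETV4 (chromosome 17, 43527844 to 43579620, minus strand) was read at 27.9, 33.7 and 30.5 CPM in NC, at 50.8, 56.5 and 81.3 CPM with shRNA1, at 97.7, 94.4 and 91.4 CPM with shRNA2 and at 162, 161 and 84.3 CPM with shRNA3. Every shRNA library lay above NC, and here shRNA1, not shRNA2, held the lowest values among the hairpins. The log2 fold changes were 1.03 (SE 0.25), 1.62 (SE 0.25) and 2.15 (SE 0.25), with edgeR adjusted p-values of 0.00382, 0.00023 and 3.53e-05. The 4.42-fold rise with shRNA3 was 2.80-fold without libraries 1 and 2 (adjusted p = 3.97e-05).

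ETV5 (chromosome 3, 186046308 to 186110318, minus strand) moved less and with little spread. It was read at 52.1, 50.7 and 50.02 CPM in NC, at 88.7, 80.3 and 74.3 CPM with shRNA1, at 59.9, 60.7 and 55.0 CPM with shRNA2 and at 82.6, 79.4 and 83.0 CPM with shRNA3. All shRNA libraries lay above NC, and the 3 shRNA3 libraries lay close together, unlike those of ETV4. The log2 fold changes were 0.67 (SE 0.11, edgeR adjusted p = 0.00038) with shRNA1, 0.20 (SE 0.11, adjusted p = 0.152) with shRNA2 and 0.68 (SE 0.11, adjusted p = 0.000377) with shRNA3. With raw library totals the last was 0.35 and did not pass (adjusted p = 0.0703).

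PHLDA1, a pleckstrin-homology-like protein induced by mitogens (chromosome 12, 76025447 to 76033932, minus strand), was read at 81.9, 116 and 101 CPM in NC. It was read at 557, 493 and 426 CPM with shRNA1, at 333, 359 and 324 CPM with shRNA2 and at 1344, 1213 and 370 CPM with shRNA3. Every shRNA library lay above NC, and libraries 1 and 2 of shRNA3 above all others. The log2 fold changes were 2.31 (SE 0.38), 1.77 (SE 0.37) and 3.29 (SE 0.39), with edgeR adjusted p-values of 0.000331, 0.00188 and 3.81e-05. The 9.80-fold rise with shRNA3 was 3.79-fold without libraries 1 and 2 (adjusted p = 6.24e-07).

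**Figure D2:**
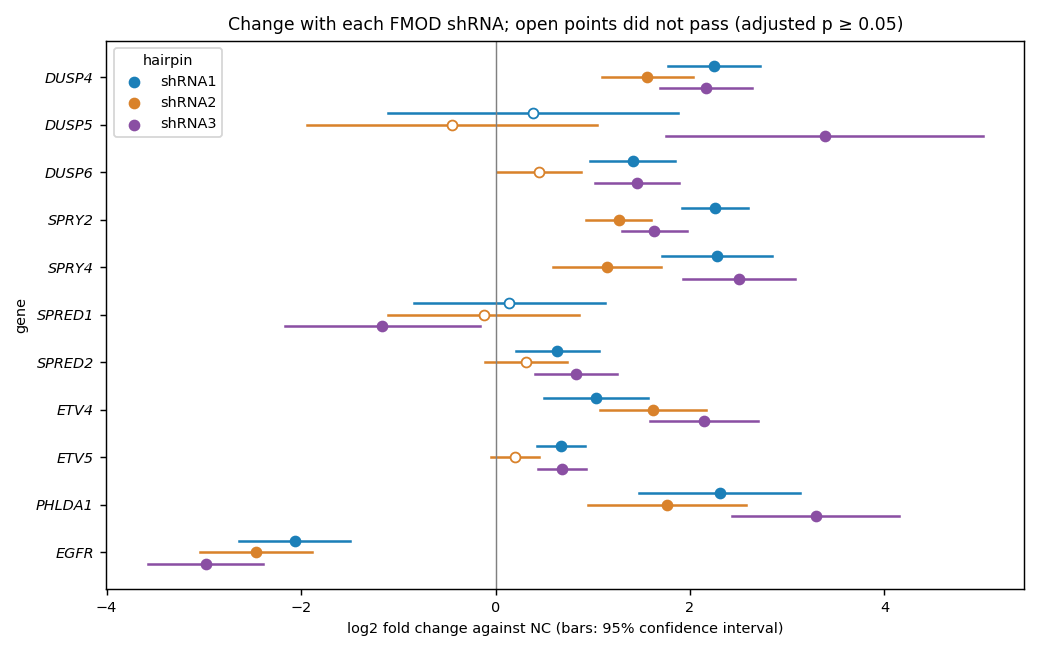
Log2 fold change against NC for each hairpin (x axis), by gene (y axis). Bars are 95% confidence intervals from edgeR's quasi-likelihood fit, filled points passed at an adjusted p under 0.05 and open points did not. DUSP4, SPRY2, SPRY4, ETV4 and PHLDA1 have filled points right of 0 with each hairpin, and EGFR lies left of 0. DUSP5 and SPRED1 have filled points for shRNA3 alone. Tested directly, DUSP5 with shRNA3 differed from the other hairpins, and SPRED1 did not pass (adjusted p = 0.0504 against shRNA1 and 0.144 against shRNA2).

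Reads from a gene and from a gene on the opposite strand cannot be told apart unless counting used strand, which the sources used here do not state. In GENCODE release 29 (GRCh38), on which the positions above rest, DUSP6, SPRY4, ETV4, ETV5 and PHLDA1 overlap a gene on the opposite strand, SPRED2 and ETV5 overlap one on their own strand, and DUSP4, DUSP5, SPRY2 and SPRED1 overlap none.

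The change of each gene was then set against the fall of EGFR, whose tyrosine kinase feeds the cascade. EGFR was read at 1372, 1271 and 1283 CPM in NC, at 315, 284 and 338 CPM with shRNA1, at 225, 250 and 237 CPM with shRNA2 and at 134, 109 and 253 CPM with shRNA3. PHLDA1, DUSP5, SPRY4, ETV4 and SPRED2 were highest, and SPRED1 lowest, in libraries 1 and 2 of shRNA3. DUSP4, SPRY2 and ETV5 were highest in shRNA1 library 1, and DUSP6 stood at 121 to 135 CPM in all shRNA3 libraries. For EGFR, all shRNA libraries lay below NC, and libraries 1 and 2 of shRNA3 held the lowest values. The log2 changes were -2.07 (SE 0.26), -2.46 (SE 0.26) and -2.98 (SE 0.27), and the last was -2.34 without those libraries (edgeR adjusted p-values from 2.52e-08 to 5.26e-05). For every 100 EGFR reads an NC library held 3.34 to 4.28 DUSP4 reads, and an shRNA library 45.3 to 202. For SPRY4 the same ratio was 0.744 to 0.878 in NC and 8.90 to 64.5 in the shRNA libraries. For SPRED1 it was 2.71 to 3.32 in NC and 6.01 to 15.1 in the shRNA libraries, so that even the SPRED1 fall in shRNA3 was smaller than that of EGFR.

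The log2 change relative to EGFR was tested with limma on log2 CPM minus that of EGFR in the same library, with adjustment over 17531 genes. With shRNA1 it passed upward for 9 of the 10 genes, from 2.21 for SPRED1 to 4.38 for PHLDA1. DUSP5 did not pass (2.36, 95% interval 0.12 to 4.60, limma adjusted p = 0.0503). With shRNA2 it again passed for 9, from 2.34 for SPRED1 to 4.24 for PHLDA1, and not for DUSP5 (2.02, adjusted p = 0.0821). With shRNA3 it passed for all 10, from 1.54 for SPRED1 to 6.17 for PHLDA1. Most genes passed this test, since EGFR fell by more than most: 73.6%, 80.2% and 85.9% of all genes were higher relative to EGFR with shRNA1, shRNA2 and shRNA3. The share among the 10 is read against that background and sets them little apart from other genes.

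Per kilobase of exon (CPM per kb), EGFR in NC stood at 105 ± 4.37 (SD, n = 3). DUSP5 stood at 33.1 ± 3.51 and PHLDA1 at 12.3 ± 2.11. DUSP6, at 10.1 ± 2.96, did not differ from PHLDA1 beyond their spread. SPRED2, ETV5 and ETV4, at 8.90 ± 0.314, 8.78 ± 0.179 and 8.51 ± 0.801, also overlapped one another. DUSP4 (6.77 ± 0.802), SPRED1 (4.63 ± 0.473), SPRY2 (2.20 ± 0.142) and SPRY4 (1.58 ± 0.138) followed. With shRNA1 the level per kb of PHLDA1, 61.0 ± 8.11, was above that of EGFR, 24.95 ± 2.15. The means of DUSP5 (43.2 ± 17.7), DUSP4 (32.1 ± 10.6) and DUSP6 (26.9 ± 3.12) were also higher, but their spreads overlapped that of EGFR. By mean, EGFR ranked 1 in NC among the 10 genes and itself, 5 with shRNA1 and with shRNA2, and 8 with shRNA3, whose libraries disagree. The 2 Sprouty genes thus started lowest of the 10 per length.

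The hairpins were compared with one another gene by gene. The comparisons with shRNA3 rest on a group whose libraries disagree, shown in the map of library changes. Between shRNA1 and shRNA2, 4 genes passed, all higher with shRNA1, against 5.78% of all genes higher and 6.53% lower (edgeR quasi-likelihood). They were DUSP6, SPRY2, SPRY4 and ETV5, and the largest log2 difference was 1.13 for SPRY4 (SE 0.25, adjusted p = 0.016). DUSP4 differed by 0.69 and did not pass (95% interval 0.23 to 1.14, adjusted p = 0.0525). Without shRNA1 library 1 or 2, or shRNA2 library 1 or 3, between 1 and 2 genes passed, against 1.26% to 1.83% of all genes higher in those fits.

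Between shRNA2 and shRNA3, 5 genes passed, all lower with shRNA2, against 1.91% of all genes higher and 6.43% lower (edgeR): DUSP5, DUSP6, SPRY4, ETV5 and PHLDA1. Without shRNA3 library 3 all 10 passed, in a fit in which 30.7% of all genes were higher and 28.5% lower. Without any other single library of these 2 groups 0 passed, with 6 to 7 of the 10 at an unadjusted p under 0.05, in edgeR fits in which at most 0.0771% of all genes passed in either direction. The DESeq2 Wald test on all libraries called 7, against 6.5% of all genes higher and 15.9% lower. Shares of all genes at an unadjusted p under 0.05 were not counted. Between shRNA1 and shRNA3, 3 genes passed, SPRY2 higher with shRNA1 and DUSP5 and ETV4 lower, against 11.9% and 18.1% of all genes. Without shRNA3 library 3 this count was 7, in a fit in which 32.4% of all genes were higher and 31% lower, and without libraries 1 and 2 it was 0, with 3 at an unadjusted p under 0.05. Some pairs lay close together: DUSP4, DUSP6 and ETV5 differed between shRNA1 and shRNA3 by 0.08 (95% interval -0.37 to 0.54), -0.05 (-0.47 to 0.38) and -0.01 (-0.26 to 0.23).

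**Figure D3:**
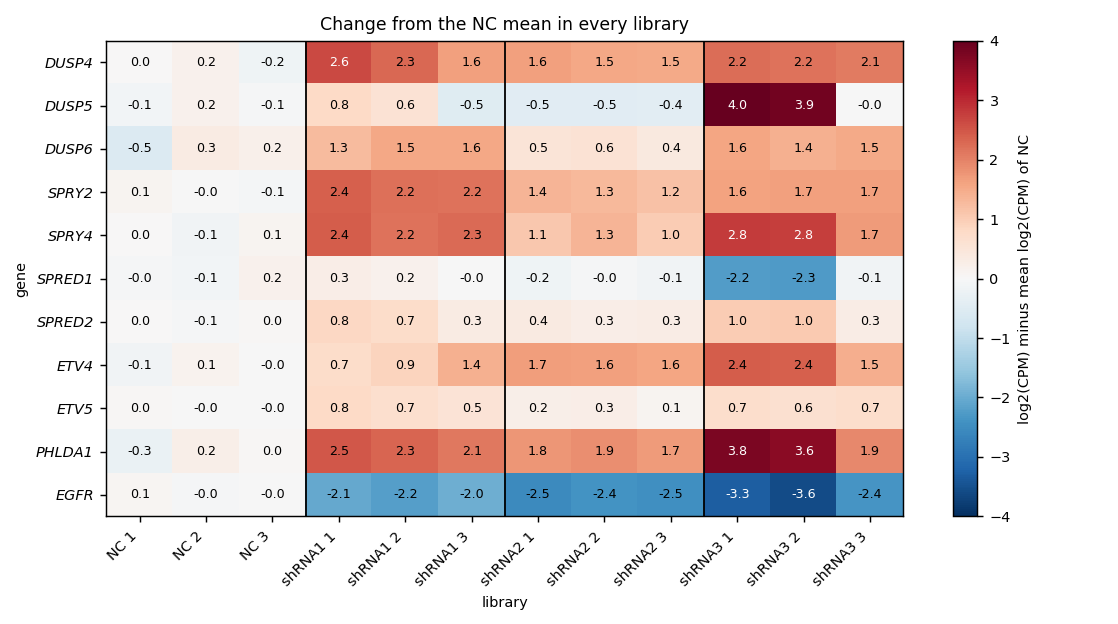
Change of each gene (rows) from the mean log2 CPM of NC in each of the 12 libraries (columns), in log2 units and printed in each cell. Black lines separate the groups. In libraries 1 and 2 of shRNA3, DUSP5 stands at 4.0 and 3.9 and SPRED1 at -2.2 and -2.3, whereas library 3 of shRNA3 stands at -0.0 and -0.1.

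Other genes of the pathway were counted in lists. Their counts are read against the shares of all genes that rose and fell: 26.8% and 30.6% with shRNA1, 24.6% and 28.4% with shRNA2, 26.4% and 27.6% with shRNA3, and 28.1% and 28.8% with shRNA3 without libraries 1 and 2. Of 10 other DUSP phosphatases, 5 rose and 2 fell with shRNA1, 6 rose and 1 fell with shRNA2, and 5 rose and 1 fell with shRNA3 (edgeR, adjusted over all genes). Without libraries 1 and 2 of shRNA3, 6 rose and 1 fell. DUSP9, a cytoplasmic ERK phosphatase related to DUSP6, was read at 6.14 to 8.33 CPM in NC and 45.5 to 97.4 CPM in the shRNA libraries, with no overlap. Its log2 changes were 2.77, 3.79 and 3.41. DUSP7, of the same cytoplasmic group, rose by 2.44, 2.14 and 3.40. DUSP1, an immediate early phosphatase of p38 and JNK as well as ERK, rose by 3.52, 2.47 and 6.59, and like DUSP5 it was far higher in shRNA3 libraries 1 and 2 (1891 and 1911 CPM) than in library 3 (79.4 CPM). Without them its rise with shRNA3 was 6.05-fold. DUSP10, a phosphatase of p38 and JNK, fell, by -1.05, -2.50 and -1.08.

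The paralogues of the Sprouty and SPRED genes did not move alike. SPRY1 rose from 2.94 to 3.55 CPM in NC to 9.40 to 27.5 CPM in the shRNA libraries, with log2 changes of 1.65, 2.02 and 2.68. SPRY3 fell by -1.98, -2.16 and -2.97, and its shRNA libraries held 4 to 42 counts each against 110 to 120 in NC. SPRED3 fell by -1.89 with shRNA2 and by -1.53 with shRNA3, and its change of -0.27 with shRNA1 did not pass. These paralogues belong to a list of 11 other feedback regulators, of which 4, 3 and 4 rose and 2, 3 and 3 fell with shRNA1, shRNA2 and shRNA3 (edgeR). Without libraries 1 and 2 of shRNA3, 3 rose and 4 fell. CBLB of that list, a ubiquitin ligase that promotes receptor breakdown, fell by -1.19, -1.43 and -0.54. PHLDA2, a paralogue of PHLDA1 from an imprinted locus, rose by 2.75, 2.22 and 3.79. PHLDA3, a p53 target, rose with shRNA3 (1.83), where libraries 1 and 2 stood at 288 and 255 CPM and library 3 at 70.7 CPM, and without those libraries it did not pass (0.33, adjusted p = 0.0558). PHLDA2 then stood at 1.83. ETV1, the third PEA3 gene, rose with shRNA2 (1.56) and shRNA3 (1.32), and its log2 change of 0.50 with shRNA1 did not pass.

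The cascade itself had medians near 0. Of 18 RAS, RAF, MEK, ERK and adaptor genes, 3 rose and 1 fell with shRNA1, 4 rose and 3 fell with shRNA2 and 7 rose and 4 fell with shRNA3, and their median log2 changes were 9.09e-05, -0.03 and 0.11. Without libraries 1 and 2 of shRNA3, 2 rose and 3 fell. HRAS, a RAS GTPase, rose by 1.12, 1.38 and 1.52, the last 0.94 without those libraries. Of 7 JNK and p38 cascade genes, 1 rose with shRNA1, 1 fell with shRNA2, and 2 rose and 3 fell with shRNA3, or 2 and 1 without libraries 1 and 2. The EGFR relatives ERBB2 (log2 -0.88, -0.50 and -0.68) and ERBB3 (-4.46, -3.87 and -3.83) fell with each hairpin, and ERBB4 held at most 4 counts in any library and was not tested.

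Of 18 other ERK targets and substrates, 5 rose and 3 fell with shRNA1, 3 rose and 6 fell with shRNA2, and 9 rose and 4 fell with shRNA3 (edgeR). Without libraries 1 and 2 of shRNA3, 3 rose and 5 fell. JUNB and FOSL1, AP-1 subunits picked out after their values were seen, passed upward with shRNA3 but not without those libraries. JUNB was read at 1226 and 1283 CPM in them, at 256 CPM in library 3 and at 249 to 295 CPM in NC, and FOSL1 at 437 and 443, 91.6 and 84.6 to 113 CPM. EGR1, an immediate early zinc finger factor induced through ERK and the serum response factor, was read at 74.6, 121 and 117 CPM in NC and between 4.52 and 12.7 CPM in the shRNA libraries. No library overlapped, and its log2 changes were -3.40, -3.27 and -4.16, opposite in sign to those of DUSP4, SPRY2 and PHLDA1. EGR2, its paralogue, held 40 to 74 counts in the NC libraries and at most 4 in an shRNA library. EPHA4, an ephrin receptor, held 37 to 60 counts in NC and 1 to 8 in the shRNA libraries. MYC, whose protein ERK stabilises, was read at 69.9 to 87.7 CPM in NC and 412 to 1275 CPM in the shRNA libraries and rose by 2.65, 3.15 and 3.67. The list therefore held genes far above and far below their NC levels, and its median log2 changes were 0.04, -0.38 and 0.57, the last -0.06 without libraries 1 and 2.

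**Figure D4:**
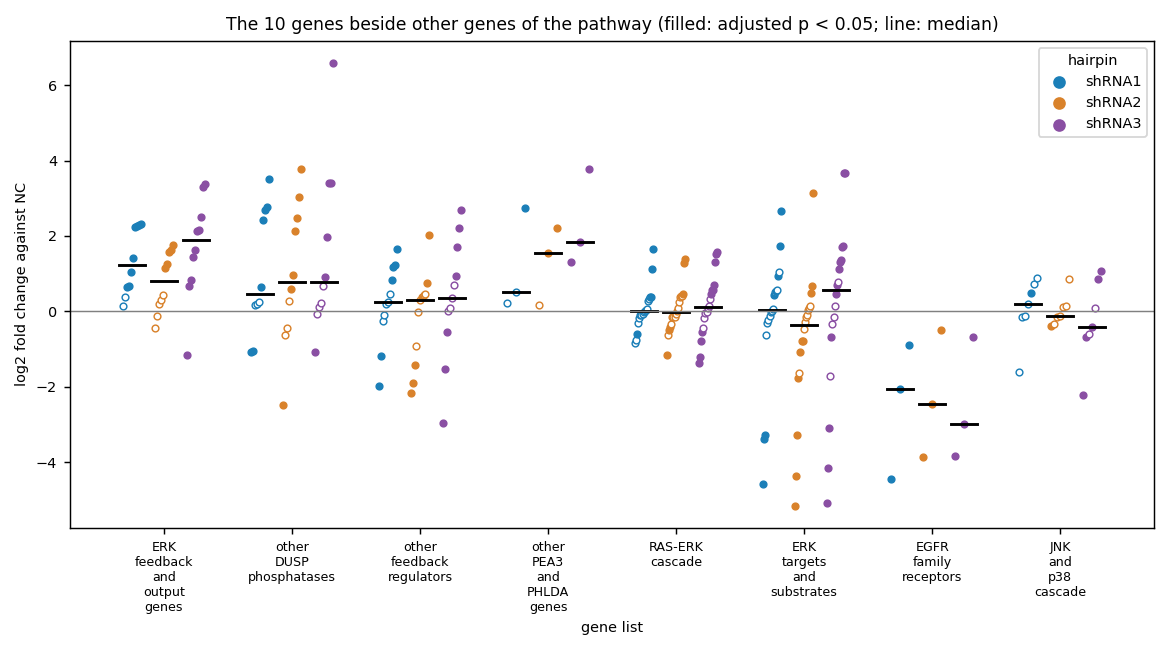
Log2 fold change against NC (y axis) of the 10 genes and of 7 other gene lists (x axis), 1 point per gene and hairpin. Filled points passed at an edgeR adjusted p under 0.05, open points did not, and black lines are medians. The medians of the 10 genes (1.22, 0.80 and 1.89) lie above 0, those of the RAS-ERK cascade lie near 0, and the ERK targets and substrates lie on both sides of 0.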

How the data were processed

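RNA of 12 SCC-15 samples went into NEBNext Ultra RNA libraries, per the labels' protocols. The submitters' processing notes name HISAT2, HTSeq 0.11.2 and GRCh38. The deposited table holds estimated counts per gene. Of its values 13.8% are not whole. The annotation, filters and use of strand are not given in the sources used here.

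Counts were rounded, scaled by TMM (factors 0.771 to 1.11), filtered with filterByExpr (minimum count 10, minimum total 15) and fitted with edgeR 4.0.16 in R 4.3.3 for its two-sided quasi-likelihood test, in 1 model of 4 groups with 8 residual degrees of freedom, threshold 0.05, Benjamini-Hochberg adjustment over 17532 genes. CPM values are TMM-scaled. An SE is the log2 change divided by the square root of F. Changes relative to EGFR used limma 3.58.1 (prior count 2), and the error of EGFR is then shared by all genes. DESeq2 1.42.0 was an alternative. On simulated data for shRNA1 against NC (17532 genes), 59 of 100 genes changed 4-fold and 18 of 96 changed 2-fold were recovered, with 9 false calls. Few genes changed in the simulation, whereas 26.8% of all genes passed upward and 30.6% downward in the data. Adjustment was therefore stricter in the simulation, and its rates are not those of the data. A gene that did not pass may still differ. Symbols were found for 60463 of 61044 IDs. No pair of replicates matched within sampling noise (chi-square per gene 3.61 to 240). Intervals are 95% intervals.

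The 10 genes and the lists were chosen with earlier results of these data known. Named were the 10 genes, FMOD, the EGFR family, the paralogues, and from each list up to 3 genes per direction, those past the threshold in 1 direction with each hairpin and with the largest change in the hairpin that changed them least. A gene that this rule names is not reported here. Alternatives covered scaling, filter, tool, threshold, samples and replicate block.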

Additional observations from a re-analysis of the deposited data

Results flagged for a closer look

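The change differed between hairpins, by the edgeR test of the difference itself, in 12 results over 7 genes. These results are given as values, without explanation. The shares of all genes higher and lower were 5.78% and 6.53% for shRNA1 against shRNA2. They were 11.9% and 18.1% for shRNA1 against shRNA3, and 1.91% and 6.43% for shRNA2 against shRNA3. The calls for shRNA2 against shRNA3 were lost without any single library of those groups other than shRNA3 library 3. Counts under other settings are given below. DUSP5 differed by -3.0 between shRNA1 and shRNA3 (adjusted p = 0.0144) and by -3.83 between shRNA2 and shRNA3 (adjusted p = 0.0271). DUSP6 differed by 0.96 between shRNA1 and shRNA2 (adjusted p = 0.0119) and by -1.01 between shRNA2 and shRNA3 (adjusted p = 0.0269). SPRY2 differed by 0.99 between shRNA1 and shRNA2 (adjusted p = 0.00348) and by 0.62 between shRNA1 and shRNA3 (adjusted p = 0.0135). SPRY4 differed by 1.13 between shRNA1 and shRNA2 (adjusted p = 0.016) and by -1.35 between shRNA2 and shRNA3 (adjusted p = 0.0266). ETV4 differed by -1.11 between shRNA1 and shRNA3 (adjusted p = 0.0104). ETV5 differed by 0.47 between shRNA1 and shRNA2 (adjusted p = 0.0217) and by -0.48 between shRNA2 and shRNA3 (adjusted p = 0.0359). PHLDA1 differed by -1.53 between shRNA2 and shRNA3 (adjusted p = 0.0377).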

How the results depend on the processing

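Against NC, the number of the 10 genes called stayed within 1.5 times its value under every alternative run, except for shRNA2 with only the 6 libraries compared. There 8 passed, against 37.8% of all genes upward and 41.4% downward in that fit. The calls gained were ETV5 and SPRED2 upward and DUSP5 downward. Of 630 values of single genes against NC under the alternatives, 608 kept direction and side of the threshold, 14 lost the call, 6 gained it and 2 turned, both in genes not called (SPRED1 with shRNA1 at -0.038 with upper-quartile factors, and DUSP5 for the mean of the hairpins at -0.0071 without shRNA3 libraries 1 and 2). Raw totals moved the median of all genes with shRNA3 to -0.35, and ETV5 (0.35, adjusted p = 0.0703) and SPRED1 (-1.35, adjusted p = 0.0614) then lost their calls. Library numbers did not pair libraries (mean correlation of deviations -0.00434 over 18 same-numbered pairs), and the replicate block changed no call of a single gene against NC. Relative to EGFR the block gave 10 called with shRNA1 in place of 9. The share of all genes called relative to EGFR was not counted with the block.

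Counts between hairpins depended on the setting, and so did the share of all genes called. Percentages in brackets are the shares of all genes higher and lower in the same fit. For shRNA1 against shRNA2 the counts were 8 with only the 6 libraries (20.6% and 20.3%). They were 1 at an adjusted p under 0.01 and 1 with a log2 change of at least 1. With single libraries left out they were 1 to 5 (1.26% to 6.93% and 1.77% to 8.38%). For shRNA1 against shRNA3 they were 1 with no filter (4.2% and 7.63%) and 5 with a mean of at least 50 counts (15.3% and 23.2%). They were 5 with DESeq2 (16.6% and 23.4%) and 2 to 7 with single libraries left out (2.39% to 32.4% and 6.74% to 31%). For shRNA2 against shRNA3 they were 3 with raw totals (0.907% and 2.49%) and 2 with no filter (0.583% and 2.14%). They were 3 with the replicate block (0.57% and 1.59%) and 0 to 10 with single libraries left out (0% to 30.7% and 0% to 28.5%). With edgeR the last 2 comparisons gave 0 with only the 6 libraries (3 and 6 at an unadjusted p under 0.05), 0 at an adjusted p under 0.01 (5 and 9) and 0 without shRNA3 libraries 1 and 2 (3 and 4). In those 6-library fits 0% of all genes passed in either direction. Shares of all genes were not counted at an adjusted p under 0.01, with a log2 change of at least 1 or at an unadjusted p. The causes were not tested. Alternatives chosen after seeing the data were an ordinary spread per gene relative to EGFR, which changed no count, and the counts of the other lists without shRNA3 libraries 1 and 2. A lone library was assumed to vary like the other groups.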
